A study of Rattus norvegicus with 120 samples.

Results

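Nefl, Nefm, Nefh, Sncg, Thy1, Stmn2, Gap43, Rbpms and Slc17a6 are genes used to mark retinal ganglion cells, the neurons whose axons form the optic nerve, and the skeleton of those axons. They were examined in whole-eye RNA through every probe set annotated to one of these 9 symbols and to no other gene, which gave 15 probe sets of the 31099 in the value table. The table held 14217 genes with a probe set of their own. Of the 15 member probe sets, 14 had a mean level at or above the filter of 4.28 on the log2 scale and entered the tests. The remaining one, Gap43 1371287_at, is described only. The eyes came from 120 male rats, 12 weeks old, of the F2 generation of an intercross of 2 inbred strains, SR/JrHsd and the stroke-prone hypertensive SHRSP. Both eyes of an animal were pooled and measured once on an Affymetrix array, and all animals belong to 1 group. Each animal carries its own mixture of the parental genomes, genotypes were not used here, and no array of a parental strain was used, so the levels are described over animals. The titles carry an S code (10 codes, 11 to 13 arrays each) and an L code (22 codes, 2 to 11 arrays each), which the labels do not explain. The titles carry 1 date with each of 5 S codes and none with the other 5, and what the date marks is not stated. Values below are those left after subtracting S code means probe set by probe set, and r without named animals is that after the means were taken again, except where the S code itself is the subject.

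Neurofilaments are the intermediate filaments of large axons. Light, medium and heavy subunits, the products of Nefl, Nefm and Nefh, assemble into them, and they set the calibre of an axon. In the retina, ganglion cells carry most of the neurofilament protein, with some in horizontal cells, and nerve fibres of the cornea, iris and ciliary body contain it too. In whole-eye RNA, fewer ganglion cells, less RNA per cell and a change in another source of the same transcript cannot be told apart.

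Array medians lay between 5.78 and 5.96. The array of animal 63, 1 of 3 marked in the titles as scanned again, was least like the rest (median correlation with the other arrays over the tested probe sets 0.911, against a median of 0.982 over arrays). The array of animal 15 was second lowest at 0.949, and this animal was highest for Gap43 1367930_at and Slc17a6. The array of animal 77 ranked 7th from the lowest at 0.968. Animals 63 and 77 were lowest for many members, so results that rest on these 2 are given with and without them. Of the transcription factor genes of ganglion cells, Pou4f1 and Eomes lay below the filter, and Pou4f2, Pou4f3, Ebf3 and Atoh7 had no probe set of their own. The label of the gene group could be checked only against 12 other ganglion cell genes, described further on. These include the transcription factor genes Isl1, Isl2 and Ebf1, and Isl1 is also in the list of bipolar cell markers.

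The neurofilament subunit genes varied little between most animals, and animal 77 was lowest for all of them. Nefl 1370059_at had a lowest level of 8.25, a median of 8.96 and a highest of 9.29 over the 120 animals, with an SD of 0.15. Nefl 1370058_at ran from 8.177 through a median of 8.84 to 9.14. Nefm 1367845_at ran from 7.86 through 8.45 to 8.69 (SD 0.14). Nefh 1370815_at ran from 7.94 through 8.45 to 8.74 (SD 0.12). Between the 6th lowest and the 6th highest animal, Nefl 1370059_at differed 1.41-fold, Nefm 1.33-fold and Nefh 1.297-fold. Animal 63 was second lowest for Nefl and Nefm, at 8.43 for Nefl 1370059_at and 7.97 for Nefm, while its Nefh level of 8.39 lay near the median.

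The other axon genes showed a similar picture, with 1 or 2 low animals and a narrow body. Stmn2, which encodes a stathmin that binds tubulin dimers in growing and regenerating axons, ran from 7.76 through a median of 8.59 to 8.85 on 1370041_at and from 7.20 through 7.93 to 8.27 on 1370042_at. Animals 77 and 63 were lowest and second lowest on both probe sets. On 1370041_at they stood at 7.76 and 7.92, while the 6th lowest animal stood at 8.40. Gap43, which encodes a growth cone protein of the inner membrane face, ran from 6.96 through 7.65 to 8.14 on 1367930_at, with animal 63 lowest and animal 15 highest. Animal 77 was at 7.43, the 6th lowest value. Gap43 1371287_at stayed between 2.74 and 3.37, below the filter in every animal, and animal 63 was highest there.

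Thy1, which encodes a surface glycoprotein anchored by a lipid and long used to label ganglion cells in rodents, depended on the probe set. Thy1 1369652_at ran from 7.55 in animal 40 through a median of 8.28 to 8.49, with an SD of 0.14. Thy1 1369651_at ran from 6.04, again in animal 40, through 7.27 to 7.98, with an SD of 0.31. That SD was larger than those of 93.7% of all tested probe sets and was the largest among the members. The range was 3.85-fold for 1369651_at and 1.92-fold for 1369652_at. Animal 63 was second lowest on 1369652_at at 7.91 but at 7.56 it lay above the median on 1369651_at.

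Sncg, which encodes gamma-synuclein, a small soluble protein of axons, had the smallest SD of the 14 tested (0.11). It ran from 9.34 in animal 77 through a median of 9.78 to 10.03. Rbpms, which encodes an RNA-binding protein found in nearly all ganglion cells of the rodent retina and also in smooth and heart muscle, had 3 probe sets. Rbpms 1375898_at ran from 7.56 in animal 63 through 8.41 to 8.81, and the next lowest animal, animal 10, stood at 7.98. Rbpms 1372380_at ran from 5.90 through 6.49 to 6.86, with animal 77 at 6.78, among the high values. Rbpms 1380498_at ran from 4.09 through 4.53 to 5.27, and animal 63 was highest there. Slc17a6, which encodes the vesicular glutamate transporter VGLUT2 that loads glutamate into the synaptic vesicles of ganglion cells, ran from 7.44 in animal 63 through 8.19 to 8.69 in animal 15 (SD 0.18). Animal 77 was second lowest at 7.64 and animal 10 followed at 7.82.

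**Figure D1:**
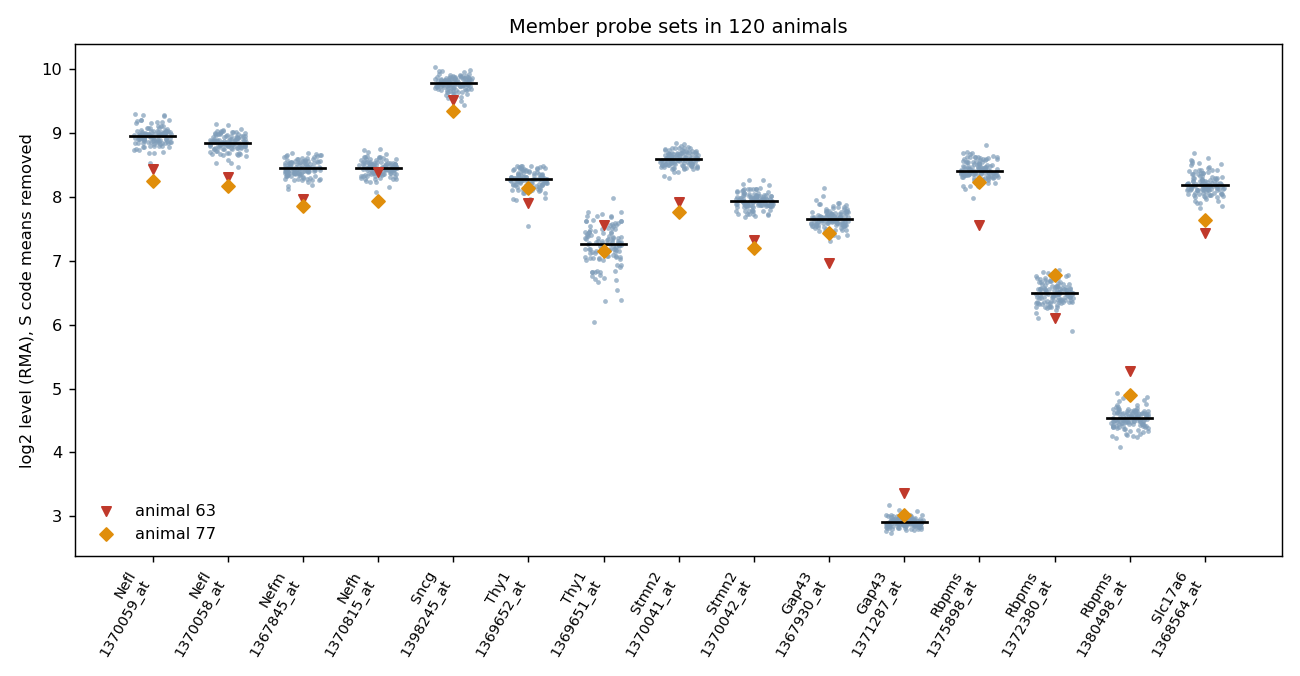
Log2 level of each of the 15 member probe sets (x axis) in 120 animals (1 point each), with S code means removed; black lines are medians and animals 63 and 77 have their own marks. Levels of different probe sets are not comparable with each other; animal 77 lies lowest for 7 probe sets and animal 63 for 3, and Thy1 1369651_at is the most spread.

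Taken over all 14 tested probe sets, the members were slightly less variable than the table as a whole. Their median SD was 0.15, beside 0.16 over all 23326 tested probe sets, and 3 of 14 exceeded the latter, namely Thy1 1369651_at, Slc17a6 and Rbpms 1372380_at. The highest animal exceeded the lowest by 2-fold or more for 8 of 14, near the 53.6% of all tested probe sets. Without animals 63 and 77, only Thy1 1369651_at had such a range.

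The RefSeq promoter table of the GRCr8 build held 2 of the 9 members, Slc17a6 and Sncg. Both promoters in the table are printed. The levels of these 2 genes had no called relation in the fit with the S code alone and a positive one under 2 alternatives, described further on. Each run holds 250 bases before and 50 bases after the start of the gene. The Slc17a6 promoter is chr1:110348197-110348496 on the + strand, with a GC content of 49%, and the Sncg promoter is chr16:9711287-9711586 on the - strand, with a GC content of 61.7%. Capitals mark the matches of the motifs searched, on either strand.
Slc17a6: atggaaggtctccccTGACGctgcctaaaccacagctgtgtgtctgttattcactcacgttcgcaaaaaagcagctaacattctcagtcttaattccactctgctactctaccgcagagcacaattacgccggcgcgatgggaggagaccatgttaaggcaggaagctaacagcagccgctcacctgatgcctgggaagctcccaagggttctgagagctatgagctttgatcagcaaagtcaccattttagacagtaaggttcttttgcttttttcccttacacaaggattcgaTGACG
Sncg: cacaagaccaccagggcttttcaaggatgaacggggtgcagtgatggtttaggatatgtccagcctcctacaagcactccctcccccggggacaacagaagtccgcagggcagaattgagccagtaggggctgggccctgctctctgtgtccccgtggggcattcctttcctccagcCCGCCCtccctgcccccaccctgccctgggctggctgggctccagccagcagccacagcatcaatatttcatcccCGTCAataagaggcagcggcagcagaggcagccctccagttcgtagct
The motifs searched were the TATA box (TATAAA), the CCAAT box (CCAAT), the GC box (GGGCGG), the core of the cyclic AMP response element (TGACG) and the left part of the RE1 element (TTCAGCACC), each with its reverse complement. Slc17a6 had 2 matches of TGACG, at positions -235 and 46 from the start. Sncg had 1 match of the GC box, read as CCGCCC at position -73, and 1 of TGACG, read as CGTCA at position 3. The shares of all 33469 promoters with a match were 14.2% for TATAAA, 37.5% for CCAAT, 33.1% for GGGCGG, 21.2% for TGACG and 0.356% for TTCAGCACC. A match describes the letters only.

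Before its means were removed, the S code went with a difference in level for all 14 tested probe sets (limma moderated F test, Benjamini-Hochberg adjusted p between 4.99e-19 and 4.44e-06), where 92.1% of all tested probe sets were called. The share of variance that the S code took lay between 31.5% for Stmn2 1370041_at and 63.6% for Nefl 1370058_at, beside a median of 30.8% over all tested probe sets. Thy1 1369652_at was lowest in code 5 (7.85 ± 0.12, SD, n = 12) and highest in code 4 (8.45 ± 0.14, SD, n = 12), a 1.52-fold difference. The arrays of these 2 codes did not overlap. Nefl 1370058_at was also lowest in code 5 (8.43 ± 0.17, SD, n = 12) and was highest in code 9 (9.07 ± 0.08, SD, n = 12), again with no overlap. The lowest and highest of 10 codes are extremes by choice, and 6 of the 14 had no overlap between theirs. The share of all tested probe sets without such overlap was not computed, so this count shows nothing particular to the members. Nefm 1367845_at was lowest in code 7 (8.23 ± 0.21, SD, n = 12) and highest in code 10 (8.67 ± 0.09, SD, n = 13). The highest code was code 10 for Nefl 1370059_at, Nefm, Stmn2 1370041_at, Rbpms 1375898_at and Slc17a6, whereas Thy1 1369652_at, Sncg and Nefh had their highest means in codes 4, 9 and 6.

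**Figure D2:**
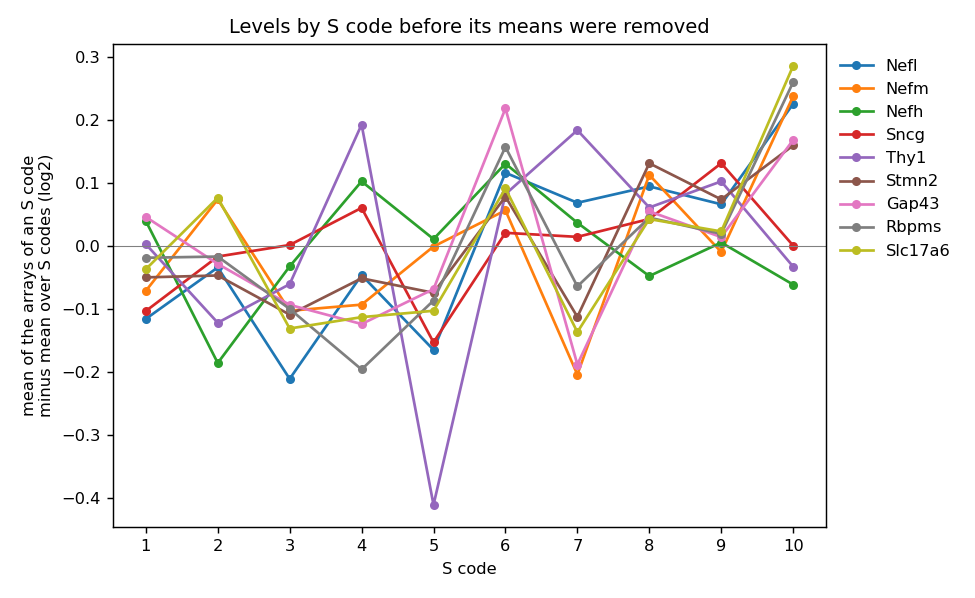
Mean log2 level of the arrays of each S code (x axis) minus the mean over the 10 codes, before S code means were removed, for the probe set of highest mean of each of the 9 genes. Thy1 drops in code 5, and Slc17a6, Rbpms, Nefm, Nefl, Gap43 and Stmn2 lie above their means in code 10.

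The L code gave no call among the members. With the S code as covariate, limma's moderated F test called 0 of 14 (lowest adjusted p 0.213), beside 4.58% of all tested probe sets, and 2 of 14 had an unadjusted p under 0.05. These were Nefh (unadjusted p = 0.0401) and Thy1 1369652_at (unadjusted p = 0.0490). Neurofilament means were lowest in L code 16, at 8.76 ± 0.27 (SD) for Nefl 1370059_at, 8.29 ± 0.20 for Nefm and 8.34 ± 0.24 for Nefh over 7 arrays, one of them that of animal 77. Without animal 77 they were 8.86 ± 0.17, 8.37 ± 0.07 and 8.41 ± 0.18 (SD, n = 6), and code 16 was then lowest for Nefl 1370059_at but not for Nefl 1370058_at, Nefm or Nefh. None of the 14 was called for the distribution that a single autosomal locus of large effect gives in an F2. A mixture of 3 normal distributions at weights 1:2:1 was called where its Bayesian information criterion undercut the best single distribution by over 10, and this held for 0 of 14 members and 0.253% of all tested probe sets. For every tested member the single distribution had the lower criterion. The simulated mixtures on which the call was tried had levels far apart, so the missing calls say nothing of smaller steps.

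Probe sets of the same gene were compared over the 120 animals, in 7 pairs. The Nefl probe sets moved together most closely, with Pearson r = 0.799 and Spearman rho = 0.675 (permutation p = 1e-05 for each, two-sided, the smallest that 100000 permutations within S codes can give). The Stmn2 probe sets followed with r = 0.746 and rho = 0.549 (permutation p = 1e-05 for each). Without the 2 animals farthest from the median, 63 and 77, r was 0.710 for Nefl and 0.552 for Stmn2, and r was above 0 within each of the 10 S codes for both genes. The Thy1 probe sets had r = 0.471 and rho = 0.398 (permutation p = 1e-05 and 3e-05), with r between -0.18 and 0.830 within S codes. For Rbpms, 1375898_at and 1372380_at had r = 0.513 and rho = 0.408 (permutation p = 1e-05 and 2e-05). Against Rbpms 1375898_at, 1380498_at had r = -0.348 and rho = -0.181 (permutation p = 0.00427 and 0.0524), and without animals 10 and 63 r was -0.145. Rbpms 1372380_at and 1380498_at had r = -0.241 and rho = -0.174 (permutation p = 0.0134 and 0.0697), with r above 0 in 2 of the 10 S codes. The 2 Gap43 probe sets had r = -0.165 and rho = -0.061 (permutation p = 0.148 and 0.521). Below, the probe set of highest mean stands for its gene, and the other probe sets serve as alternatives.

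The array carries control probe sets near the 3' and the 5' ends of the actin and GAPDH transcripts, and the 3' minus 5' difference is commonly used to judge RNA integrity and the completeness of labelling. It went with the level of most members, in both directions. In limma fits with the S code as covariate, the actin difference was called positive for 8 of 14 probe sets and negative for 3, beside 39.3% and 26.6% of all tested probe sets. For GAPDH these counts were 9 and 2, beside 39.4% and 24.8%. The closest relation was that of Thy1 1369651_at, with r = -0.858 and rho = -0.829 for actin (permutation p = 1e-05 for each), and r = -0.830 and rho = -0.783 for GAPDH (permutation p = 1e-05 for each). Within S codes r ran from -0.927 to -0.736 for actin, and without animals 20 and 40 it was -0.828. Animal 40, lowest on both Thy1 probe sets, had the highest actin difference (1.66), and animal 10, highest on Thy1 1369651_at, had the lowest (0.79). Thy1 1369652_at followed the actin difference far less, with r = -0.239 and rho = -0.153 (permutation p = 0.0275 and 0.108), and without animals 20 and 40 its r was -0.106. Animal 40 was at 7.55 on this probe set and animal 20 at 8.21, near the median of 8.28. Neither was left out alone. Sncg also fell with the actin difference, with r = -0.352 and rho = -0.334 (permutation p = 0.00047 and 0.00041; limma adjusted p = 0.000431), and r was -0.273 without animals 20 and 40. Rbpms 1375898_at had r = 0.587 (rho = 0.601), Slc17a6 0.515 (rho = 0.507) and Gap43 1367930_at 0.457 (rho = 0.435), each with a permutation p of 1e-05, and their r without animals 20 and 40 was 0.537, 0.495 and 0.471. Nefl 1370059_at had r = 0.382 and rho = 0.466 (permutation p = 4e-05 and 1e-05). Stmn2 1370041_at had r = 0.326 and rho = 0.375 (permutation p = 0.00091 and 5e-05). Nefm had r = 0.225 and rho = 0.238 (permutation p = 0.0187 and 0.0102), and Nefh had r = 0.222 and rho = 0.219 (permutation p = 0.019 and 0.0198). These values come from 30 relations, and the part of RNA integrity in the relations below was not tested beyond the fits with both differences as covariates.

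**Figure D3:**
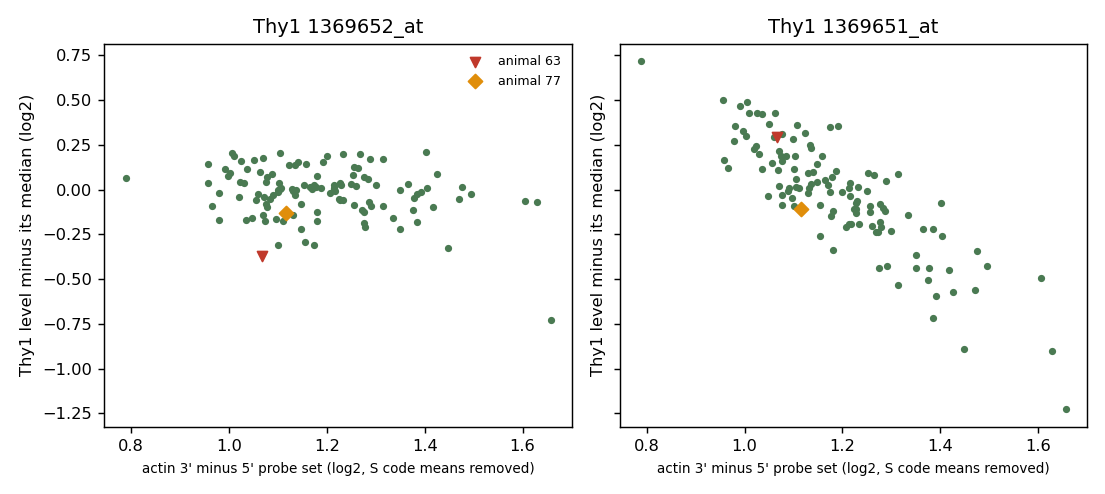
Level of the Thy1 probe sets minus their medians (y axis, log2) against the actin 3' minus 5' difference (x axis, log2) in 120 animals, S code means removed. Thy1 1369651_at runs steeply downward (r = -0.858), while Thy1 1369652_at is nearly flat (r = -0.239).

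Most member genes were high and low in the same animals. Over the 36 gene pairs, Pearson r was above 0 for 35, with a median of 0.463 and a range from -0.01 to 0.758. Limma was fitted on every tested probe set with the S code as covariate. A pair was called where the adjusted p was under 0.05 in both fits, with each gene in turn as the predictor. By this rule 28 pairs were called, all positive. Nefl was called with 8 of its 8 partners, in a fit that called 40.5% of all probe sets positive and 21.3% negative. Nefm was called with 8 of 8 (32.6% and 12.5%), Nefh with 7 of 8 (6.99% and 2%) and Stmn2 with 7 of 8 (37.3% and 15.8%). Gap43 and Slc17a6 were called with 6 of 8 each, in fits that called 42.5% of all probe sets positive for either gene and 23.7% and 26% negative. Sncg was called with 5 of 8 (17% and 8.03%), Rbpms with 5 of 8 (44.9% and 25.6%) and Thy1 with 4 of 8 (10.6% and 3.03%). Of the 9 genes, Rbpms had the share of called partners nearest to that of all probe sets, and Nefh the one furthest above it.

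The closest pairs joined neurofilament subunits, Stmn2, Gap43 and Slc17a6. Nefm and Stmn2 had r = 0.758 and rho = 0.631, and r was 0.638 without animals 63 and 77, the 2 farthest from the median of Nefm. Gap43 and Slc17a6 had r = 0.748 and rho = 0.639, and r was 0.663 without animals 15 and 63. Nefl and Nefm, which lie on the same chromosome, had r = 0.714 and rho = 0.554, and 0.599 without animals 63 and 77. Nefl and Stmn2 had r = 0.707 and rho = 0.545, and 0.545 without the same animals. Each of these had a permutation p of 1e-05 for r and for rho, and limma adjusted p-values were 3.63e-17, 2.43e-17, 2.38e-14 and 5.02e-15 in the same order. Within S codes their r ran from 0.075 to 0.970 and was above 0 in each of the 10 codes, as it was for 14 of the 36 pairs. Nefh was less tied to the other subunits, with r = 0.479 to Nefl (rho = 0.347, permutation p = 1e-05 and 0.00017) and r = 0.550 to Nefm (rho = 0.462, permutation p = 1e-05 for each). Without animals 63 and 77 these r were 0.376 and 0.476, and within S codes the first ran from -0.241 to 0.863.

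Sncg and Thy1 moved with each other and had no call with Gap43, Rbpms or Slc17a6. Their r was 0.555 and their rho 0.569 (permutation p = 1e-05 for each; limma adjusted p = 6.26e-07), r was 0.589 without animals 20 and 77, and it lay between 0.353 and 0.755 within S codes. Sncg had r of 0.030 with Gap43, -0.01 with Rbpms and 0.096 with Slc17a6, with limma adjusted p of 0.847, 0.933 and 0.476. Thy1 had r between 0.075 and 0.196 with Stmn2, Gap43, Rbpms and Slc17a6, with limma adjusted p between 0.158 and 0.654. Nefh and Rbpms made up the 8th uncalled pair (r = 0.163, limma adjusted p = 0.282). Single animals went both ways for Sncg and Slc17a6. Both genes were low in animal 77 (Slc17a6 7.64, Sncg 9.34) and in animal 63 (7.44 and 9.52). In animal 68, Slc17a6 was 2nd highest at 8.61 and Sncg 3rd lowest at 9.50, and in animal 20 Slc17a6 was 3rd highest at 8.58 and Sncg 2nd lowest at 9.44. Animals 20 and 68 had actin differences of 1.63 and 1.35, and animals 63 and 77 of 1.07 and 1.12. The median over arrays was 1.17 before S code means were removed. The part of these differences in single animals was not tested.

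**Figure D4:**
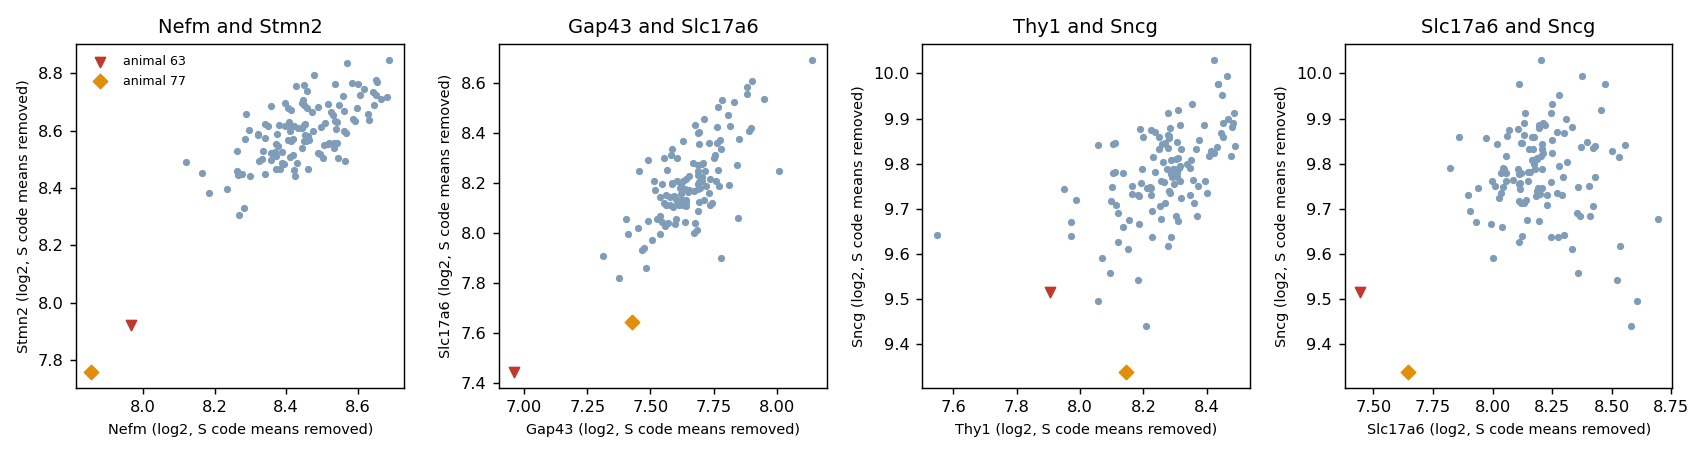
Levels of 4 gene pairs (log2, S code means removed, probe set of highest mean) in 120 animals, with animals 63 and 77 marked. Nefm rises with Stmn2, Gap43 with Slc17a6 and Thy1 with Sncg, while Slc17a6 and Sncg form no line (r = 0.096).

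Animals 63 and 77 carried part of these relations. Without both, the median r over pairs was 0.357, 22 pairs were called positive, and Sncg with Rbpms was called negative (r = -0.233, limma adjusted p = 0.0342). Without these animals, the Sncg fit called 21.5% of all probe sets positive and 25.3% negative, and the Rbpms fit 36.9% and 26.9%. The positive share over the fits of the members ran from 6.25% for Nefh to 37% for Slc17a6. The calls lost were Nefl with Sncg (r from 0.317 to 0.105), Nefl with Thy1 (0.265 to 0.188), Nefm with Sncg (0.398 to 0.218), Nefm with Rbpms (0.386 to 0.227), Nefh with Slc17a6 (0.336 to 0.254) and Sncg with Stmn2 (0.354 to 0.071). Leaving out animal 77 alone ended the calls of Nefl with Sncg (limma adjusted p = 0.130), Sncg with Stmn2 (0.120) and Nefh with Slc17a6 (0.0764). Leaving out animal 63 alone ended the call of Nefl with Thy1 (0.107). The calls among Nefl, Nefm, Nefh and Stmn2, and those among Gap43, Slc17a6 and Rbpms, held without both animals.

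With the actin and GAPDH differences as covariates, Sncg and Thy1 were closer to the other members. The median r was 0.446, and 31 pairs were called, all positive. The fits with these covariates called from 5.79% (Nefh) to 42.3% (Rbpms) of all probe sets positive, with 13.1% for Sncg and 13.9% for Thy1. Sncg had r of 0.510 with Nefl, 0.541 with Stmn2 and 0.332 with Slc17a6 once both differences were removed, up from 0.317, 0.354 and 0.096. Thy1 gained calls with Stmn2, Gap43, Rbpms and Slc17a6 (r between 0.266 and 0.317), Sncg gained one with Slc17a6 (limma adjusted p = 0.00538), and Nefh lost those with Gap43 and Slc17a6 (limma adjusted p of 0.0889 and 0.0823). With these covariates and animals 63 and 77 left out, the median r was 0.325 and 21 pairs were called. Rbpms was then called with Nefl but not with Nefm, Stmn2, Gap43 or Slc17a6. Thy1 was called with 4 of 8 partners, and its r with Stmn2, Gap43, Rbpms and Slc17a6 lay between 0.129 and 0.222. The r of Sncg with Slc17a6 was 0.131. When 5 principal components of the tested probe sets served as covariates, 15 pairs were called. The calls among Nefl, Nefm, Nefh and Stmn2 held, while Rbpms lost its calls with Nefl, Nefm, Stmn2, Gap43 and Slc17a6. Sncg with Slc17a6 was again called (r = 0.397, limma adjusted p = 0.0219). With the L code as a further covariate, 23 pairs were called. Thy1 lost its calls with Nefl, Nefm and Nefh (limma adjusted p of 0.221, 0.138 and 0.199) and kept the one with Sncg, and Nefh lost those with Gap43 (0.109) and Slc17a6 (0.0548). Read from 1372380_at in place of 1375898_at, Rbpms was called with 0 of its 8 partners. Read from 1369651_at, Thy1 was called negative with Nefl, Gap43, Rbpms and Slc17a6 in place of the positive or absent calls of 1369652_at.

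**Figure D5:**
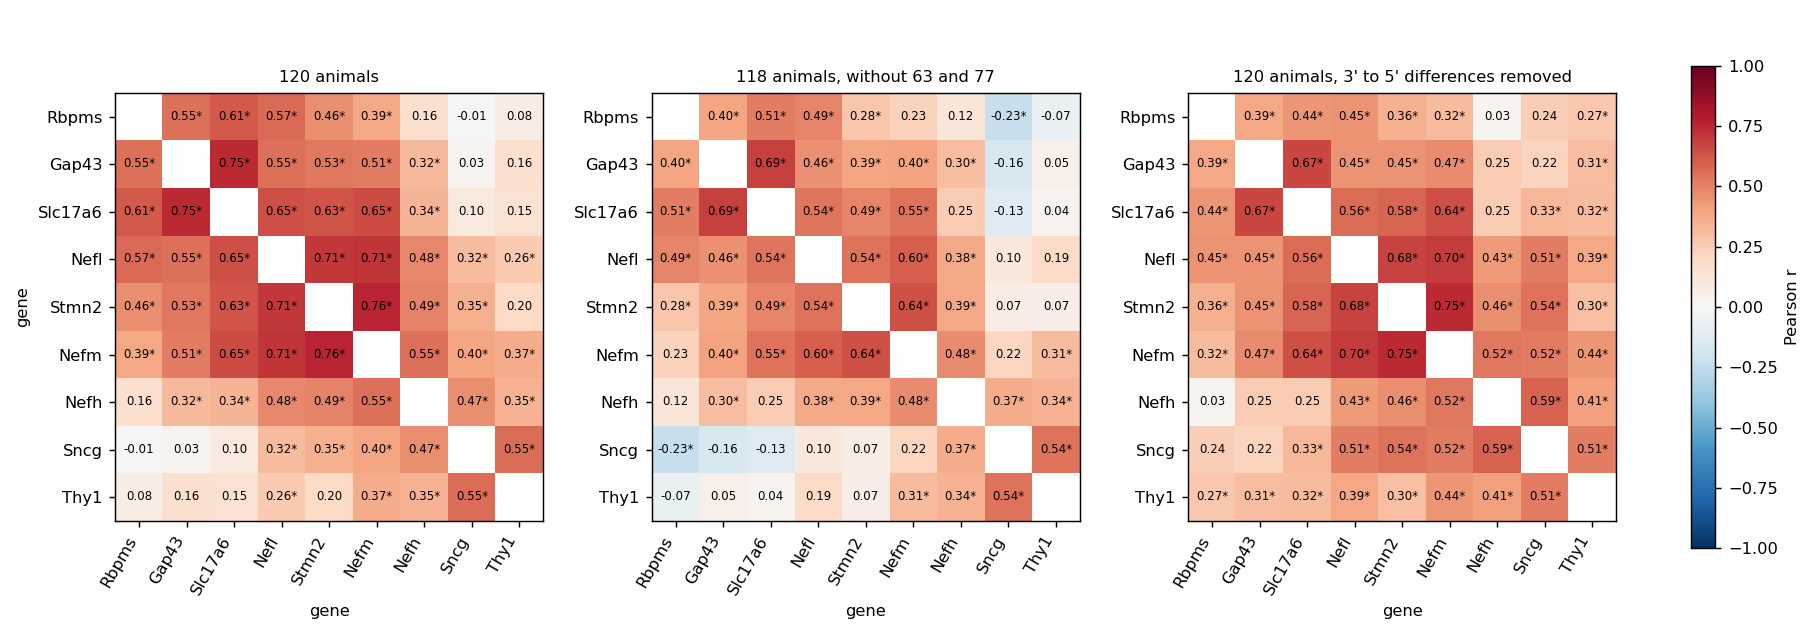
Pearson r between the 9 genes (S code means removed, probe set of highest mean) over 120 animals, without animals 63 and 77, and with both control differences (actin and GAPDH, 3' to 5') removed; a star marks a pair called by limma. The block of Nefl, Stmn2 and Nefm is dark in all 3 panels, and Sncg and Thy1 are pale with Rbpms, Gap43 and Slc17a6 in the first 2.

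The genes most like each member were ranked among 12317 other genes by r over the 120 animals, as a description, since the points share arrays. Nefl was most like Disp2 (r = 0.788), the amino acid transporter gene Slc38a1 (0.778) and Lrp11 (0.775), where the median gene had 0.190. Nefm was most like the potassium channel gene Kcnc2 (0.692), Kcnip4, which encodes a potassium channel interacting protein (0.687), and Nrn1, which encodes the neurite growth protein neuritin (0.681). Nefh was most like Iqsec3 (0.613), Prkar1b, a regulatory subunit of protein kinase A (0.590), and the potassium channel gene Kcnc1 (0.564). Stmn2 was most like the protocadherin gene Pcdh9 (0.756), Kcnip4 (0.755) and Slc38a1 (0.748). Slc17a6 was most like Kcnc2 (0.812), the splicing factor gene Rbfox1 (0.796) and Adam22 (0.789), and Gap43 was most like Arl10 (0.773), Rbfox1 (0.746) and Ipp (0.745). Sncg was most like Cabp1, which encodes a neuronal calcium-binding protein (0.729), Caly (0.718) and Atp6v0c, a proton pump subunit (0.712), where the median gene had -0.0046. Thy1 was most like Gpi, an enzyme of glycolysis (0.659), St6galnac6 (0.656) and the kinesin cargo scaffold gene Mapk8ip1 (0.647). Rbpms was most like Rapgef2 (0.823), Cep63 (0.796) and Armt1 (0.784). No gene was among the first 3 of both a neurofilament gene and Sncg or Thy1. The neurofilament genes shared none of their first 3 with each other either, and neither did Sncg and Thy1. The missing overlap therefore does not set Sncg and Thy1 apart.

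Other genes of ganglion cells gave a mixed picture beside Nefl. Of the 12 that passed the filter, limma called 7 positive with Nefl and 0 negative, beside 40.5% and 21.3% of all probe sets, and their median r of 0.218 was close to that of the median gene (0.190). The closest were Nrn1 (r = 0.642), Nell2, which encodes a secreted neuronal glycoprotein (0.639), the RNA-binding protein gene Elavl2 (0.608) and the melanopsin gene Opn4, which marks light-sensitive ganglion cells (0.344). With Slc17a6, 6 of 12 were called positive and 1 negative, beside 42.5% and 26% of all probe sets, led by Elavl2 (r = 0.754), Nrn1 (0.652) and Nell2 (0.629). With Sncg, 5 of 12 were called positive and 1 negative, the latter Isl2, beside 17% and 8.03%. The median r of the 12 was 0.186 with Sncg and 0.218 with Nefl, where the median gene had -0.0046 and 0.190. Chrna6, Elavl3, Elavl4 and Isl1, chosen for this direction, had higher r with Sncg (0.352, 0.319, 0.310 and 0.301) than with Nefl (0.206, -0.090, 0.110 and -0.084). These differences in r were not tested.

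Among 25 other genes of the neuronal cytoskeleton and axon, 14 were called positive with Nefl and 4 negative, beside 40.5% and 21.3% of all probe sets, with a median r of 0.349. Ina, which encodes internexin-alpha, a further neurofilament subunit of central axons, had r = 0.686. The kinesin motor gene Kif5a had 0.628, the neuronal tubulin gene Tubb3 0.625 and Dpysl2, which encodes the tubulin-binding protein CRMP2, 0.612. Dpysl3, of the same family, had r = -0.46. With Stmn2, 16 of 25 were called positive and 1 negative, beside 37.3% and 15.8%, and with Sncg 12 and 0, beside 17% and 8.03%. The genes closest to Sncg in this list, Uchl1 (0.68) and Mapk8ip1 (0.63), had r of 0.13 and 0.07 with Nefl. Uchl1 encodes an abundant neuronal deubiquitinating enzyme. Sncb, which encodes beta-synuclein, was called positive with Sncg and with Nefl (r = 0.247 with Nefl, limma adjusted p = 0.0176).

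Lists of genes that mark other cell types were read against Nefl in the same way, beside the 40.5% of all probe sets called positive and the 21.3% called negative. Of the 9 amacrine cell markers, 5 were called positive with Nefl and 1 negative (Tfap2a, r = -0.295), led by Gad1, which makes the transmitter GABA (r = 0.607), Tfap2b (0.576) and Slc32a1 (0.572). Of 8 Mueller glia and astrocyte markers, 6 were called positive and 0 negative, led by the glutamate transporter gene Slc1a3 (0.659) and Vim (0.573). Among the 6 bipolar cell markers 2 were called positive and 1 negative. Grm6, the glutamate receptor of ON bipolar cells, had r = 0.648, while Trpm1, the channel of the same pathway, had -0.284. Of 6 cone markers 4 were called positive and 1 negative, with Gnat2 at 0.609 and Cnga3 at -0.392, and 4 of 8 rod markers were called positive and 0 negative, at r of at most 0.320. Of 5 pigment epithelium markers 4 were called positive and 0 negative, led by Lrat (0.552), and of 5 myelin markers 1 was called positive (Pmp22, 0.280) and 1 negative (Mbp, -0.363). Of 9 genes of vesicular transport and synaptic release, 4 were called positive, led after Slc32a1 by Cplx1 (0.512) and Syn1 (0.464), and 1 negative (Slc17a7, -0.225). Horizontal cell, fibroblast and T cell markers were called positive for 2 of 3, 3 of 6 and 1 of 3, and negative for 1 (Lhx1, -0.414), 0 and 1 (Cd2, -0.364). Sensory neuron, smooth muscle, skeletal muscle and lens markers were called positive for 2 of 5, 0 of 5, 2 of 8 and 1 of 6, and negative for 2 (Calca, -0.265, and Scn10a, -0.242), 1 (Cnn1, -0.298), 0 and 0. The positive share was below the background for bipolar, myelin, T cell, sensory neuron, smooth muscle, skeletal muscle and lens markers, and within 10 percentage points above it for rod, fibroblast and vesicular genes. Without animals 63 and 77, the Nefl fit called 33.2% of all probe sets positive and 19.3% negative. Positive calls then numbered 0 of 8 for rod, 2 of 6 for cone, 2 of 5 for pigment epithelium, 1 of 5 for sensory neuron and 2 of 3 for T cell markers. The counts of the other cell type lists moved by at most 1. Over the 18 lists the median r with Nefl lay between -0.13 for smooth muscle and 0.483 for the 3 horizontal cell markers. The part of these cell types in the relations among the members was not tested.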

How the data were processed

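Whole-eye RNA of 120 animals was measured with 1 Affymetrix array each. The deposited values are log2 levels from RMA (background correction, normalisation across arrays and summary of the probes of a set), which the submitters' processing notes name without a version. Genome build and annotation are not given in the sources used here. RMA can mask shifts common to most genes, and strain variants under a probe can alter its signal. The number of arrays limits the precision, and with 1 array per animal the p-values measure animal and array spread together.

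Symbols came from the platform annotation and were updated through a RefSeq table (GRCr8) by gene number. Tests covered the 23326 probe sets whose mean reached the 25th percentile of the table (4.28). S code means were removed or the S code was a covariate. Fits used limma 3.58.1 in R 4.3.3 with Benjamini-Hochberg adjustment over all tested probe sets, called at an adjusted p under 0.05. Correlations used Python 3.11.15, numpy 2.4.6 and scipy 1.17.1, with 100000 two-sided permutations within S codes. The fits and the mixture call were tested on simulated data. The text names all member probe sets, the 3 genes most like each member, and up to 4 genes of each of 18 lists by absolute r with Nefl. Genes of the lists named beside another member, and single animals, were chosen after their values were seen. Of 162 list entries 130 were used, 14 were below the filter and 18 had no probe set of their own. The members and lists were chosen with earlier results of these data known. Leaving out animals 63 and 77, together or alone, was added after seeing the data.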

Additional observations from a re-analysis of the deposited data

How the results depend on the processing

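The S code called 13 or 14 members, and the 1:2:1 mixture 0, under every alternative run. The L code called 0 except without the S code as covariate, when it called 2 (both Nefl probe sets). Leaving out each S code in turn gave 24 to 28 positive pairs and 0 negative. The count of positive pairs was 15 with 5 principal components as covariates and 21 to 31 under the other alternatives, against 28. Negative pairs, 0 in the reported fit, numbered 1 without animals 63 and 77, 4 with Thy1 from 1369651_at and 5 with Rbpms from 1380498_at. Slopes of the second gene on the first turned negative for Gap43 and Rbpms with 5 principal components (-0.026). They did so with Thy1 from 1369651_at for Nefl (-0.54), Nefm (-0.047), Gap43 (-0.14), Rbpms (-0.27) and Slc17a6 (-0.19). With Rbpms from 1372380_at this held for Nefm (-0.0495) and Stmn2 (-0.00023), and with 1380498_at for Nefl (-0.36), Nefm (-0.31), Stmn2 (-0.43), Gap43 (-0.24) and Slc17a6 (-0.31). The cause was not tested. Of 130 list entries (128 distinct genes), 63 were positive and 14 negative with Nefl. The negative count was 8 with the 3' to 5' differences and 2 with 5 principal components, which left 20 positive. Members ranging at least 2-fold, 8 as reported, numbered 5 without the rescanned arrays, 2 with L code means removed, and 1 with 5 principal components removed, without animals 63 and 77, or from the 6th lowest to the 6th highest animal. No paired analysis was possible because all animals form 1 group. Probe sets near the filter, such as Rbpms 1380498_at, are limited by signal over background.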
